A study of Mus musculus with 45 samples.

Results

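Ribosome biogenesis was followed in regenerating mouse liver through 39 genes whose products make, modify, cleave or assemble ribosomal RNA in the nucleolus. The genes were chosen by name and matched by Ensembl ID to the table of gene counts. All 39 were among its 19966 genes, and all 39 were among the 14090 genes that passed the filter on low counts. Poly(A) RNA of liver tissue had been sequenced in 45 libraries, which fall into 16 groups by genotype and time. The genotypes were wild type (WT) and Uhrf1hepKO (KO), by its name a loss of Uhrf1 in hepatocytes, and UHRF1 is known to bring the methyltransferase DNMT1 to newly replicated DNA. The conditions, the same in both genotypes, were baseline and 24, 30, 40, 48 and 96 h, 7 days and 4 weeks after partial hepatectomy, surgery that removes liver lobes and is followed by regrowth. Mice of both genotypes were C57Bl/6, 8 to 12 weeks old at surgery, and fed a normal diet. The sources used here do not give the driver of the deletion, the sex of the mice or whether each library is a separate animal, and liver tissue holds other cells that keep Uhrf1. Groups had 3 libraries each, apart from WT at 30 and 48 h and KO at 7 days with 2, so p-values measure the spread between these libraries, which may be technical.

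Ribosome production begins with RNA polymerase I, which transcribes the large precursor of the ribosomal RNAs from repeated genes in the nucleolus. Small nucleolar ribonucleoproteins (snoRNPs) guide the methylation and pseudouridylation of this precursor, the small-subunit (SSU) processome folds and cleaves it, and separate sets of factors carry the small (40S) and large (60S) subunits to the cytoplasm. A hepatocyte that leaves rest after surgery grows before it divides, and growth needs new ribosomes. The transcription factor MYC is known for raising the genes of this pathway through a DNA element called the E-box.

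Levels differed widely between the genes on the deposited FPKM scale, which is per length of transcript. The histone chaperone Npm1 (nucleophosmin) was highest, with a median of 76.0 FPKM over the 16 group means and a range of 58.3 to 102.7. Ncl (nucleolin), which binds ribosomal RNA precursors, had a median of 37.3 FPKM. Next came 2 core proteins of the box C/D snoRNP that guides ribose methylation, the methyltransferase Fbl (fibrillarin) with 25.9 FPKM and Nop58 with 25.0 FPKM. At the low end stood Rrp12, a factor in subunit export, with 2.42 FPKM, the SSU processome protein Utp20 with 2.06 FPKM and Noc3l, a factor of large-subunit assembly, with 1.52 FPKM. All further levels are CPM, the counts scaled to library size with TMM factors, which is not per length and is compared only within a gene.

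Promoter sequence was available in a RefSeq table (GRCm38.p6) for 34 of the 39 genes, in windows from 250 bases before to 50 bases after a start. The E-box CACGTG, which reads the same on both strands, occurred in the window of 9 of these 34 genes (26.5%). It occurred in 7.15% of the 32851 windows of this length that were used, or 8.09% of their genes. A chromosome that holds none of the 39 genes was left out of these windows. The sites are shown because they share this element. Each is written 5′ to 3′ on the strand of the gene with up to 10 bases on either side, the E-box in capitals.
Imp4, chr1:34439698-34439723, + strand: ggtcttagacCACGTGacatcccaaa
Nop2, chr6:125131813-125131838, + strand: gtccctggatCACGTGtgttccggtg
Pes1, chr11:3963967-3963992, + strand: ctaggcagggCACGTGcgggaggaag
Wdr43, chr17:71616222-71616247, + strand: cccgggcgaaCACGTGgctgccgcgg
Tsr1, chr11:74898094-74898119, + strand: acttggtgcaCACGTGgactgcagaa
Ltv1, chr10:13193094-13193119, - strand: cctgtggaccCACGTGtggagctgcc
Utp20, chr10:88826765-88826787, - strand: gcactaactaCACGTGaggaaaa
Pno1, chr11:17211540-17211562, - strand: tacaaccacgCACGTGttcctct
Mybbp1a, chr11:72441357-72441376, + strand: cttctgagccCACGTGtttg
The element began 121 bases before the start in Imp4 and 60 before it in Nop2. In the other 7 it lay after the start, between base 3 in Pes1 and base 41 in Mybbp1a. A match of 6 letters is a description of the sequence and not evidence of binding.

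Nop58, Rrs1, Nop56 and Bysl had the 4 largest mean absolute changes over the early times described below. Rrs1 had no window in the table, and the windows of the other 3 did not hold these letters. Their 100 bases before the start of transcription are given for comparison, in lower case throughout since no element is marked.
Nop58, chr1:59684871-59684970, + strand: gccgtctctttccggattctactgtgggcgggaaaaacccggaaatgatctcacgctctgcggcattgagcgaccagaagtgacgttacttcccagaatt
Nop56, chr2:130274312-130274411, + strand: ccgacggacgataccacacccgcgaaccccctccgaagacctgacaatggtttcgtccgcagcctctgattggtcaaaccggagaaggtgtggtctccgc
Bysl, chr17:47611493-47611592, - strand: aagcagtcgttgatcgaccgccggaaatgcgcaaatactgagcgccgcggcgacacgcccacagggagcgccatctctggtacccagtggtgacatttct
The Nop58 stretch ends 35 bases before the RefSeq start, where the gene begins in the GENCODE annotation.

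Annotation showed a second feature that several of the genes share. In GENCODE, 7 of the 39 carry snoRNA genes within their span on the same strand, 21 in all: 5 in Nop56, 4 in Nop58, 3 each in Ncl, Gnl3 and Wdr43, 2 in Tsr1 and 1 in Dkc1. The snoRNAs themselves were not measured by these poly(A) libraries. Exonic bases of 18 of the 39 genes also belong to another annotated gene, on the opposite strand in all but Ncl, as with Bysl and Ccnd3 or Nop56 and Idh3b. Reads of such pairs cannot be told apart without the strand setting of the counting, which is not given in the sources used here.

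Total counts were 12.85 to 23.13 M per library. Uhrf1 itself was 27.5 to 107 CPM in WT and 3.59 to 8.95 CPM in KO at 40 h, but 0.148 to 0.791 and 0.270 to 2.07 CPM under these labels at 96 h, where it cannot check them. Rhox5 and Bglap3, 2 genes chosen after their values were seen because they separated the genotypes at every other time, went against the labels at 96 h. Bglap3 was 3.17 to 17.7 CPM in every KO library outside 96 h and at most 1.53 in every WT library outside 96 h, but at 96 h the 3 libraries that carry the WT label held 9.38, 14.0 and 28.4 CPM. Rhox5 was 2.86, 4.75 and 9.57 CPM in those 3 libraries and at most 0.590 CPM in the other WT libraries. The 96 h groups are therefore called "labelled WT" and "labelled KO" throughout, and no genotype difference is read from them.

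The column names of the 6 baseline libraries in the deposited table begin like those of the 40 h libraries, while their titles call them baseline. Whether they share animals, days or preparation with the 40 h libraries is not stated in the sources used here and was not tested, and they serve as the baseline of every time. The baseline libraries also varied jointly in the genes described here. WT baseline replicate 3 held the highest value of its group for 30 of the 39 genes, against 33.7% of all genes tested, and KO baseline replicate 2 for 33 of the 39, against 35.4%. The median coefficient of variation of the 39 genes was 15.8% at baseline in WT and 20.7% in KO, but 5.4 to 10.5% in the other groups outside 96 h. Summed over the 39 genes, WT baseline libraries stood at 1093, 929 and 1275 CPM and KO baseline libraries at 1089, 1313 and 986 CPM. Comparisons with 4 weeks, where the sums lay between 962 and 1017 CPM in all 6 libraries, were therefore added after the data were seen and are given beside those with baseline.

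**Figure D1:**
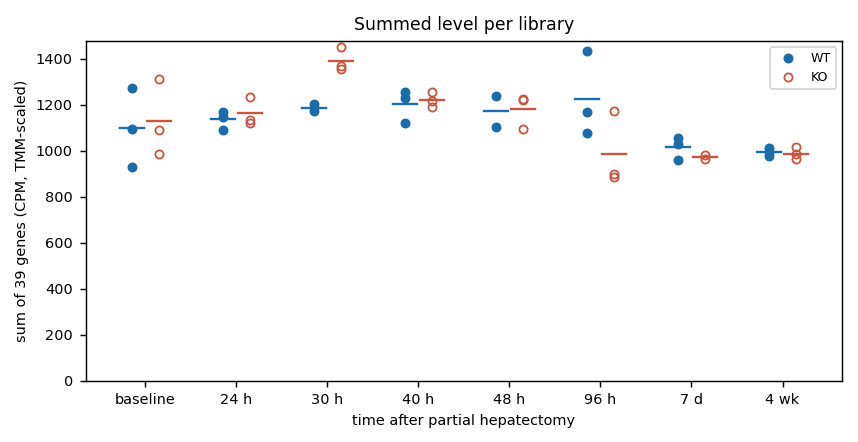
Sum of the 39 genes in each library (y axis, CPM with TMM scaling, from 0) by time after partial hepatectomy (x axis), filled circles for WT, open circles for KO, bars at the group means. The 3 KO libraries at 30 h lie between 1354 and 1450 CPM and the 2 WT libraries at 1202 and 1171 CPM, while the 3 baseline libraries of each genotype spread over most of the range seen after surgery.

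Averaged over 24 to 48 h after surgery, 11 of the 39 genes were called higher than at 4 weeks in WT and 19 of 39 in KO. None was called lower in either. Since 4 weeks is the later time, such a call is not by itself a rise after surgery. Ncl, called in WT, had WT means of 174 CPM at baseline, 147 at 24 h and 135 at 4 weeks. Mybbp1a, called in KO, had KO means of 69.0 CPM at baseline and 43.2 at 4 weeks. Nop58, a snoRNP protein, had the largest difference in both genotypes, followed by Rrp12 in WT and Nop56 in KO. The other 28 in WT and 20 in KO did not pass the test. A gene is said to have risen, fallen or been called at a Benjamini-Hochberg adjusted p under 0.05 in edgeR's quasi-likelihood test over all 14090 genes. The 11 genes in WT are 28.2% of the 39, where 18.5% of all genes were called higher and 37.1% were called in either direction. The 19 in KO are 48.7%, where 21.7% of all genes were called higher and 42.5% in either direction. The median log2 change of the 39 genes was 0.22 in WT and 0.27 in KO, against 0.01 and 0.03 over all genes tested. The genes called in both genotypes were 10, which is 10 of the 11 in WT and 10 of the 19 in KO. In WT the call of Utp20 was the 1 not shared, and leaving out any 1 library gave 9 to 12 genes in WT and 13 to 22 in KO.

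Set against baseline, fewer genes passed. The mean of 24 to 48 h was higher than baseline for 4 genes in WT (Nop58, Bysl, Ftsj3 and Imp4) and for 9 in KO, with Ddx10 lower in KO. Of all genes 35.8% were called in WT, 17.5% being higher, and 39.9% in KO, 19.6% being higher. The shares of the 39 called higher, 10.3% in WT and 23.1% in KO, were below that background in WT and near it in KO. The count moved with single baseline libraries. It became 12 in WT without WT baseline replicate 3 and 17 in KO without KO baseline replicate 2, and it fell to 2 in WT without either of the other 2 baseline libraries and to 5 in KO without KO baseline replicate 1.

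**Figure D2:**
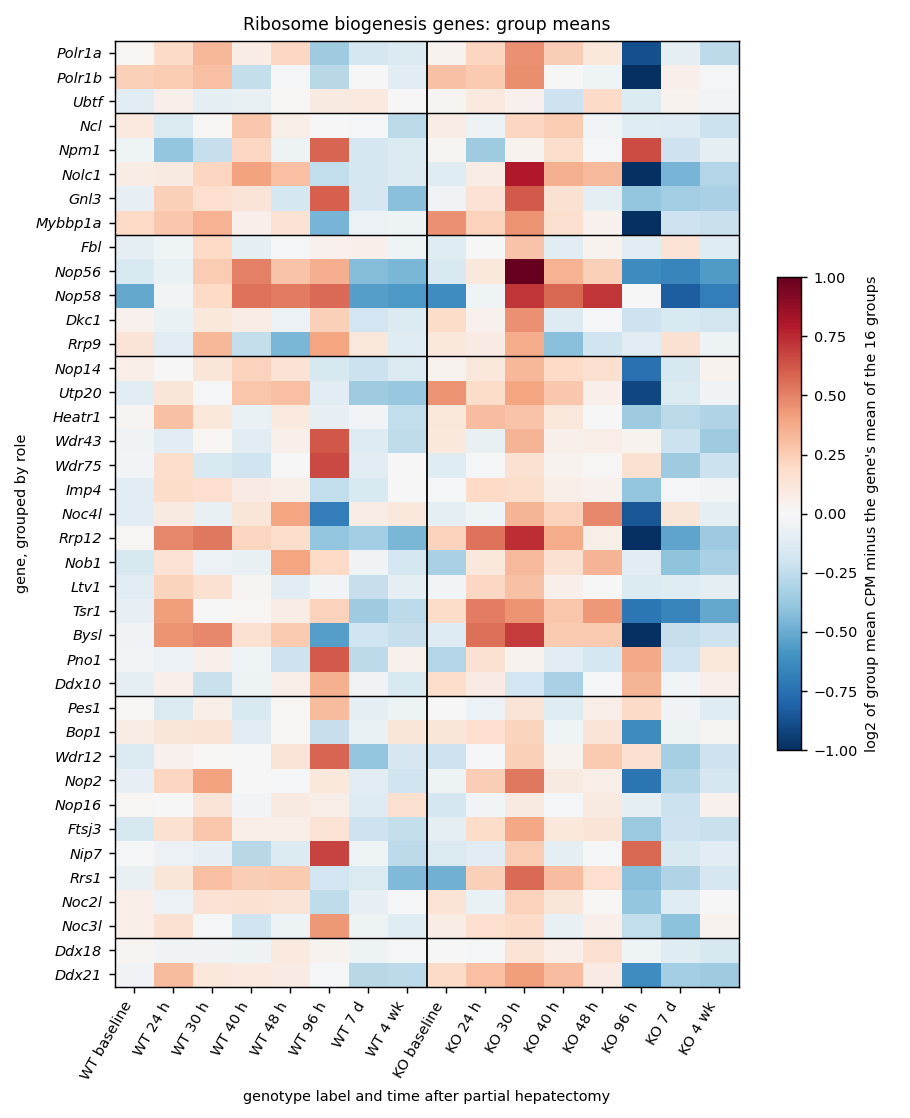
Group means of the 39 genes (rows, ordered by role with lines between roles) in the 16 groups (columns, WT to the left of the line and KO to the right). Colour is the log2 group mean CPM minus the mean of the gene's 16 log2 group means, drawn from -1 to 1 with values beyond that at the end colours. KO at 30 h holds the highest mean for 18 of the 39 genes, and the group labelled KO at 96 h the lowest for 18. The same was not counted over all genes tested.

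Of the box C/D snoRNP proteins, Nop58 and Nop56 passed the test of 24 to 48 h against 4 weeks in both genotypes and Fbl in neither. Nop58 (chromosome 1, 59684971 to 59719044) was 16.6, 12.5 and 25.2 CPM in the 3 WT baseline libraries, 27.2, 23.0 and 26.1 at 24 h, 31.5 and 27.7 at 30 h, 43.6, 29.4 and 40.2 at 40 h, 42.5 and 31.8 at 48 h, 18.1, 21.6 and 13.3 at 7 days and 19.4, 13.6 and 19.1 at 4 weeks. In KO it was 16.6, 20.9 and 12.8 CPM at baseline, 25.6, 20.5 and 29.4 at 24 h, 38.1, 45.8 and 43.4 at 30 h, 38.1, 40.8 and 36.8 at 40 h, 42.7, 47.1 and 37.2 at 48 h, 15.4 and 13.8 at 7 days and 18.2, 15.7 and 14.2 at 4 weeks. The libraries from 30 to 48 h of each genotype thus lay above all of its baseline, 7 day and 4 week libraries. The log2 change of the 24 to 48 h mean against 4 weeks was 0.89 ± 0.20 (SE) in WT, adjusted p 0.00065, and 1.18 ± 0.20 in KO, adjusted p 1.4e-05, in edgeR's quasi-likelihood test. Against baseline at 40 h it was 1.06 ± 0.24 in WT and 1.20 ± 0.24 in KO, and it passed the test at 40 and 48 h in WT and at 30, 40 and 48 h in KO.

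Nop56 (chromosome 2, 130274430 to 130279313), the partner of Nop58 in the same particle, peaked at 30 h in KO and at 40 h in WT. In KO it was 22.8, 27.6 and 16.3 CPM at baseline and 47.2, 48.6 and 53.4 at 30 h, and in WT 21.5, 15.2 and 29.9 at baseline, 26.6 and 32.1 at 30 h and 36.7, 26.7 and 41.3 at 40 h. The 30 h libraries of KO lay above every other library of either genotype for this gene. The rise over baseline was 1.16 ± 0.21 at 30 h in KO (adjusted p 4.7e-05, edgeR) and 0.65 ± 0.21 at 40 h in WT (adjusted p 0.013, edgeR), where the libraries overlapped. Against 4 weeks the 24 to 48 h mean was higher by 0.70 ± 0.18 in WT and 0.99 ± 0.18 in KO.

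The other snoRNP proteins moved less. Fbl had the smallest mean absolute change over 24 to 48 h of this role, 0.14 on the log2 scale over both genotypes against 0.97 for Nop58, and group means between 27.5 CPM (KO at 4 weeks) and 36.4 CPM (KO at 30 h) outside 96 h. It passed the test only at 30 h in KO, with 32.8, 34.3 and 42.1 CPM against 27.8, 30.5 and 24.4 at baseline. Dkc1 (dyskerin), the pseudouridine synthase of the H/ACA particle, ranged outside 96 h from 12.95 CPM (WT at 7 days) to 20.3 CPM (KO at 30 h). Rrp9, which binds the U3 snoRNP, went the other way at the later early times. It was 6.28 and 6.04 CPM in WT at 48 h against 8.39, 9.01 and 10.4 at baseline, a log2 change of -0.59 ± 0.18, and 6.86, 6.38 and 5.77 CPM in KO at 40 h against 10.8, 8.52 and 7.98, a change of -0.52 ± 0.16. Its highest group mean outside 96 h was 10.9 CPM in KO at 30 h.

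**Figure D3:**
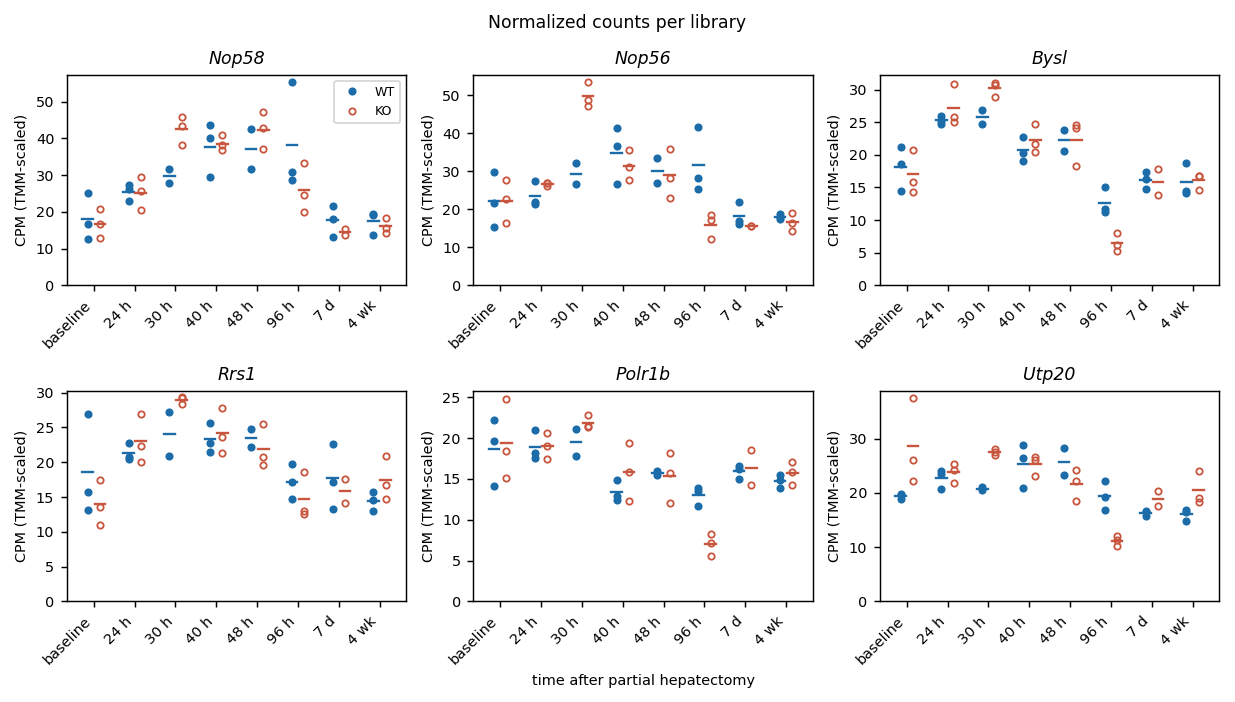
Nop58, Nop56, Bysl, Rrs1, Polr1b and Utp20 in every library (y axes, CPM with TMM scaling, from 0) by time after partial hepatectomy (x axes), filled circles for WT, open circles for KO, bars at the group means. Nop58 stays at 27.7 to 47.1 CPM from 30 to 48 h in both genotypes, and Polr1b is at 5.58 to 8.32 CPM in the libraries labelled KO at 96 h, under all others.

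Among the genes of RNA polymerase I transcription, Polr1a was called higher than baseline only at 30 h in KO. Outside 96 h Polr1b and Ubtf were each called lower once. Polr1a encodes the largest subunit of the enzyme. Its baseline libraries held 18.6, 27.5 and 16.7 CPM in KO and 20.2, 19.6 and 22.6 CPM in WT. In KO it was 24.1, 20.0 and 27.1 CPM at 24 h and 29.7, 28.0 and 26.6 at 30 h, against 16.6, 18.7 and 16.1 at 4 weeks, and in WT 25.9 in both libraries at 30 h against 18.3, 17.8 and 19.9 at 4 weeks. The 24 to 48 h mean was higher than at 4 weeks by 0.34 ± 0.12 in WT and 0.52 ± 0.12 in KO, with adjusted p-values of 0.020 and 0.00046 in edgeR. Polr1b, the second largest subunit, ranged from 13.4 CPM in WT at 40 h to 21.9 CPM in KO at 30 h outside 96 h, and was lower than baseline at 40 h in WT by -0.48 ± 0.17 on the log2 scale. Ubtf, the factor that keeps ribosomal genes open, changed least of this role, with a mean absolute early change of 0.10 and group means of 46.4 to 61.1 CPM. It fell by 0.23 ± 0.09 on the log2 scale at 40 h in KO.

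The nucleolar organisers split by gene. Nolc1, a chaperone of snoRNPs, showed the largest early change of this role and was 58.6, 55.5 and 59.7 CPM in KO at 30 h against 26.8, 44.8 and 20.2 at baseline, a rise of 0.92 ± 0.24 (adjusted p 0.0030, edgeR). In WT its baseline libraries spread from 20.3 to 52.7 CPM and no early time passed the test. Gnl3 (nucleostemin), a nucleolar GTPase found in dividing cells, was 35.9, 42.7 and 44.6 CPM in KO at 30 h against 24.6, 30.9 and 23.2 at baseline and 20.2, 20.8 and 23.5 at 4 weeks. Its 24 to 48 h mean was above 4 weeks by 0.51 ± 0.14 in WT and 0.52 ± 0.14 in KO.

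Ncl, with the smallest early change of this role (0.14), was lowest at 4 weeks, at 135, 133 and 137 CPM for WT libraries and 136, 144 and 141 CPM for KO libraries. Its highest group mean outside 96 h was 196 CPM in WT at 40 h. The gap between 24 to 48 h and 4 weeks was 0.32 ± 0.08 in WT and 0.31 ± 0.08 in KO (adjusted p 0.0014 and 0.0011, edgeR). Outside 96 h Npm1 ranged from 88.5 CPM in WT at 24 h to 134 CPM in WT at 40 h and passed no test. Mybbp1a, a repressor of ribosomal RNA synthesis that also binds MYB, had its highest group mean outside 96 h at KO baseline (69.0 CPM) and its lowest in KO at 4 weeks (43.2 CPM).

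Of the 14 genes of the SSU processome and small-subunit maturation, Bysl (bystin) had the largest mean absolute change from baseline over 24 to 48 h. It was 0.47 on the log2 scale over both genotypes. Bysl (chromosome 17, 47599331 to 47611492) was 25.2, 24.7 and 26.0 CPM in WT at 24 h and 26.9 and 24.8 at 30 h, against 18.6, 14.5 and 21.2 at baseline and 18.8, 14.1 and 14.5 at 4 weeks. In KO it was 25.8, 25.0 and 30.9 CPM at 24 h and 30.7, 28.8 and 31.0 at 30 h, against 15.9, 20.8 and 14.3 at baseline and 16.8, 16.8 and 14.6 at 4 weeks. All 24 h and 30 h libraries of each genotype lay above all of its baseline and 4 week libraries. Against baseline the rise was 0.48 ± 0.15 at 24 h and 0.51 ± 0.17 at 30 h in WT, and 0.68 ± 0.15 and 0.83 ± 0.15 in KO, and against 4 weeks the 24 to 48 h mean was higher by 0.57 ± 0.13 in WT and 0.66 ± 0.13 in KO.

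In the same role, the 24 to 48 h mean passed against 4 weeks for Rrp12 in both genotypes and for Tsr1 in KO. Neither was called higher than baseline at any early time. Tsr1, a factor on the pre-40S particle, was 16.6, 12.9 and 15.9 CPM in KO at 24 h and 8.21, 6.84 and 7.29 at 4 weeks, and its 24 to 48 h mean in KO was above 4 weeks by 0.92 ± 0.16 (adjusted p 2.1e-05, edgeR). In WT it was 14.0, 14.0 and 14.5 CPM at 24 h and 9.46, 9.35 and 7.79 at 4 weeks, and the 24 to 48 h mean did not pass. The baseline libraries of Tsr1 held 11.5, 15.8 and 8.85 CPM in KO and 7.30, 8.15 and 14.6 CPM in WT. In KO it was called lower than baseline at 7 days and 4 weeks, so its difference from 4 weeks is not by itself an early rise. For Rrp12 the WT libraries held 14.2, 14.2 and 13.8 CPM at 24 h and 9.70, 6.64 and 5.68 at 4 weeks. The KO libraries held 14.5, 14.1 and 15.4 CPM and then 8.44, 8.77 and 6.29. Its 24 to 48 h mean was higher by 0.80 ± 0.23 in each genotype, while its baseline libraries ran from 5.86 to 16.3 CPM in WT and from 6.18 to 19.2 CPM in KO, and no early time passed against them.

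Utp20, which scaffolds the processome, started from unlike baselines, 26.2, 37.5 and 22.2 CPM in the KO libraries and 19.6, 19.9 and 18.9 CPM in the WT libraries, which did not overlap. It rose in WT at 40 h by 0.39 ± 0.14 and at 48 h by 0.41 ± 0.15 over baseline, while in KO it fell by 0.40 ± 0.14 at 48 h. The 4 week libraries held 16.9, 16.5 and 14.9 CPM for WT and 19.2, 24.0 and 18.3 for KO, and the WT 24 to 48 h mean was 0.55 ± 0.12 above 4 weeks (adjusted p 0.00034, edgeR). Noc4l, a partner of Nop14, had its highest means at 48 h. Its libraries there held 19.3 and 13.2 CPM for WT and 19.3, 16.4 and 16.03 for KO, and it rose over baseline there by 0.51 ± 0.17 and 0.58 ± 0.15. Nob1, the nuclease that trims the 3′ end of small-subunit RNA, rose in KO by 0.64 ± 0.20 at 30 h and 0.66 ± 0.20 at 48 h, with group means between 7.68 CPM (KO at 7 days) and 13.4 CPM (WT at 48 h) outside 96 h.

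Pno1, the partner of Nob1, was 30.2, 35.0 and 32.1 CPM in KO at 24 h against 23.3, 23.7 and 24.6 at baseline, a rise of 0.44 ± 0.11, whereas in WT the same groups were 27.3, 27.4 and 29.4 against 31.0, 27.6 and 27.5 CPM. Imp4, part of the U3 particle, rose in WT at 24 h to 26.5, 24.2 and 27.0 CPM from 20.9, 21.9 and 20.4, by 0.30 ± 0.09. Ddx10, an RNA helicase of the processome, fell in KO at 30 h by 0.37 ± 0.12 and at 40 h by 0.50 ± 0.12, where it was 10.2, 8.48 and 10.3 CPM against 11.9, 17.0 and 12.0. Wdr43, a scaffold protein near the 5′ end of the precursor, had the smallest mean absolute early change of the role (0.10) and ranged outside 96 h from 16.8 CPM in KO at 4 weeks to 27.3 CPM in KO at 30 h. Outside 96 h, group means ran from 12.9 to 18.9 CPM for Nop14, from 17.2 to 26.3 CPM for Heatr1, from 9.93 to 14.4 CPM for Wdr75, from 14.1 to 20.3 CPM for Ltv1, from 20.5 to 26.2 CPM for Imp4 and from 6.99 to 16.9 CPM for Rrp12. Heatr1 and Wdr43 passed against 4 weeks in KO, with changes of 0.48 ± 0.16 and 0.45 ± 0.13.

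In large-subunit assembly Rrs1, which helps to bring the 5S ribosomal RNA into the particle, had the largest early change (a mean absolute log2 change of 0.56) and Bop1 the smallest (0.08). Rrs1 (chromosome 1, 9545408 to 9547455) was 29.2, 29.4 and 28.4 CPM in KO at 30 h against 13.6, 10.99 and 17.4 at baseline, a rise of 1.05 ± 0.20 (adjusted p 0.00015, edgeR). It passed at 24, 40 and 48 h in KO as well, with 0.72 ± 0.20, 0.79 ± 0.20 and 0.64 ± 0.20. In WT the baseline libraries were 15.7, 13.1 and 26.9 CPM and no early time passed against them, but the 24 to 48 h mean was above 4 weeks (15.7, 14.6 and 12.96 CPM) by 0.67 ± 0.17. Bop1 and its partners Pes1 and Wdr12 form the PeBoW complex, which is needed to process the large-subunit precursor. Bop1 ranged from 26.3 to 33.0 CPM and Pes1 from 24.4 to 29.6 CPM outside 96 h, and neither passed a test there. Wdr12 ranged outside 96 h from 14.8 CPM in WT at 7 days to 23.3 CPM in KO at 48 h, where it was above baseline by 0.46 ± 0.18.

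Nop2, an RNA methyltransferase, was 27.8, 32.1 and 30.6 CPM in KO at 30 h against 18.4, 26.2 and 16.1 at baseline, a rise of 0.58 ± 0.17, and its lowest group mean outside 96 h was 17.2 CPM in KO at 7 days. Ftsj3, another RNA methyltransferase, stood at 58.4 and 56.9 CPM in the 30 h libraries of WT and at 61.5, 62.3 and 62.6 CPM in those of KO. At 4 weeks it stood at 40.9, 39.5 and 40.8 CPM for WT and 39.4, 43.6 and 39.6 CPM for KO. Its 24 to 48 h mean exceeded 4 weeks by 0.38 ± 0.11 in WT and 0.42 ± 0.11 in KO and exceeded baseline by 0.30 ± 0.11 in both. The remaining genes of this role passed no test outside 96 h. Their group means there ran from 23.7 to 30.8 CPM for Nop16, from 10.5 to 15.2 CPM for Nip7, from 22.2 to 28.4 CPM for Noc2l and from 5.31 to 8.06 CPM for Noc3l.

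Of the other 2 nucleolar helicases, Ddx21 was above 4 weeks early and Ddx18 passed no test in any comparison. Ddx21, which links RNA polymerase I to later processing, stood at 54.3, 45.2 and 55.7 CPM in the WT libraries of 24 h and 37.7, 31.8 and 34.4 of 4 weeks. For KO these were 52.1, 46.7 and 54.6 CPM and then 32.8, 33.1 and 31.7, with 24 to 48 h means higher in turn by 0.41 ± 0.13 and 0.63 ± 0.13. The group means of Ddx18 lay between 14.98 and 18.6 CPM.

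Taken time by time against baseline, the number called was small in WT. It was 2 higher at 24 h (Imp4 and Bysl), where 22.4% of all genes were called, 2 higher at 30 h (Bysl and Ftsj3, 17.7%), 3 higher and Polr1b lower at 40 h (36.5%), and 3 higher and Rrp9 lower at 48 h (31%). In KO it was 3 higher at 24 h (Rrs1, Bysl and Pno1, 23.7%), 14 higher and Ddx10 lower at 30 h (33.1%, with 17% of all genes higher), 3 higher and 3 lower at 40 h (35.6%) and 6 higher and 2 lower at 48 h (36%). At 30 h in KO the 14 genes make up 35.9% of the 39, and the median change of the 39 was 0.27 against -0.01 over all genes tested. After Nop58 (1.34 ± 0.24), Nop56, Rrs1, Nolc1, Bysl and Gnl3 (0.65 ± 0.17), the others in descending order of change were Nob1, Nop2, Ftsj3, Noc4l, Polr1a, Fbl, Pno1 and Ltv1. The counts moved with single libraries, most of all those of baseline. Without WT baseline replicate 3 they were 10, 6, 8 and 6 at 24, 30, 40 and 48 h in WT, and without KO baseline replicate 2 they were 10 at 24 h and 12 at 40 h in KO. The 15 in KO at 30 h became 9 without KO baseline replicate 3. In WT the count was 0 at 24 h without replicate 3 of 24 h, 0 at 30 h without any 1 of both 30 h libraries or of baseline replicates 1 and 2, 1 at 40 h without replicate 3 of 40 h and 2 without baseline replicate 1. At 48 h it was 0 without replicate 2 of 48 h and 2 without baseline replicate 1 or 2. In KO it was 3 at 40 h without replicate 3 of 40 h, and 5 at 48 h without baseline replicate 1 or without replicate 1 or 2 of 48 h.

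**Figure D4:**
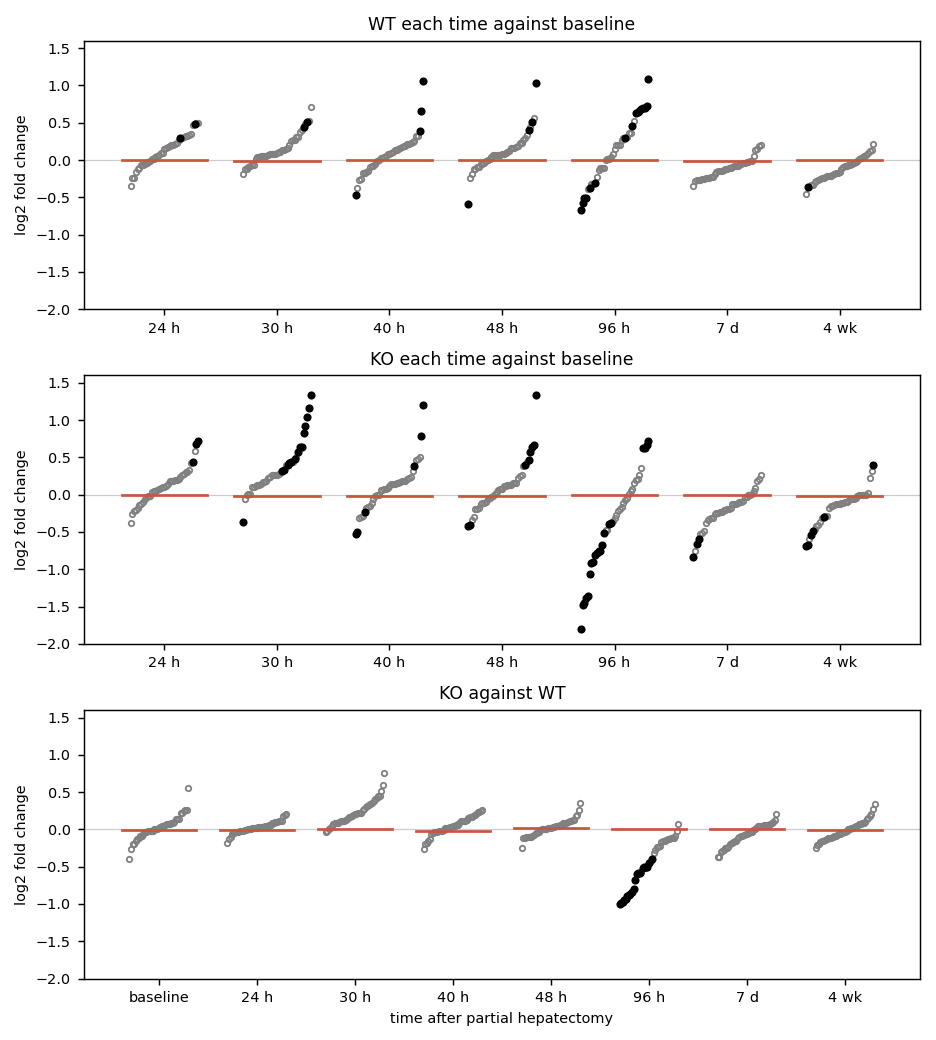
Log2 fold changes of the 39 genes, sorted within each column, for each time against baseline in WT (top) and KO (middle) and for KO against WT at each condition (bottom). Filled points passed the adjusted p under 0.05 in edgeR, open points did not, and red lines mark the median of all genes tested. In KO at 30 h 14 genes are filled above 0, and between genotypes 20 genes are filled, all below 0 and all at 96 h.

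The time of the highest level varied between genes. Without 96 h, the highest of the 7 group means came at 30 h for 25 of the 39 genes in KO, at 48 h for 5, at 24 h for 4, at baseline for 3 and at 40 h for 2. In WT it came at 30 h for 14, at 24 h for 8, at 40 h and at 48 h for 7 each, and once each at baseline, 7 days and 4 weeks. The lowest mean came at 7 days or 4 weeks for 30 genes in KO and 27 in WT. These times were not counted over all genes tested, so the counts describe the 39 genes alone. The highest mean was a median of 1.51 times the lowest in KO and 1.43 times in WT, with Nop56 reaching 3.19 times in KO and Nop58 2.17 times in WT.

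Between KO and WT no gene passed at 7 of the 8 conditions. None of the 39 was called between genotypes at baseline, 24, 30, 40 or 48 h, 7 days or 4 weeks in edgeR, where 0.0852%, 0.0426%, 0.937%, 0.142%, 0.135%, 0.135% and 0.22% of all genes were called in that order. At an unadjusted p under 0.05 the counts were 3, 0, 7, 1, 0, 0 and 1, and DESeq2 also called 0 at each. Averaged over these 7 conditions the count was again 0, with 1 gene at an unadjusted p under 0.05, where 2.13% of all genes were called. Utp20 had the smallest p there, with a difference of 0.19 ± 0.06 and an adjusted p of 0.068, followed by Tsr1 with 0.12 ± 0.08. The count was 1 without any 1 of KO baseline replicate 3, WT 40 h replicate 3, WT 48 h replicate 2 and KO 48 h replicate 3, and at baseline it was 1 without KO baseline replicate 3.

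At single conditions the smallest p-values belonged to the following genes, none of which passed. At baseline Utp20 was 0.56 ± 0.14 higher in KO (adjusted p 0.15) and Pno1 0.27 ± 0.11 lower by libraries that did not overlap. At 24 h the leading genes were Pno1 with 0.21 ± 0.11 and Rrp9 with 0.19 ± 0.16, at 40 h Ddx10 with -0.27 ± 0.12 and Dkc1 with -0.20 ± 0.13, and at 48 h Ubtf with 0.18 ± 0.10 and Tsr1 with 0.36 ± 0.21. At 7 days they were Noc3l with -0.36 ± 0.22 and Nob1 with -0.37 ± 0.23, and at 4 weeks Utp20 with 0.34 ± 0.14 and Ddx10 with 0.21 ± 0.12.

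At 30 h the values leaned to KO without any call. The log2 difference was above 0 for 37 of the 39 genes, with a median of 0.21 against 0.01 over all genes, and for 24 genes every KO library was above both WT libraries, as for 15.4% of all genes. Nop56 led with 0.76 ± 0.23 (adjusted p 0.13), and Utp20 followed with 0.41 ± 0.16 (27.5, 28.2 and 27.1 CPM in KO, 21.1 and 20.5 in WT). Genes of S phase and mitosis moved with this difference: 11 of 20 were called higher in KO at 30 h, as Rrm2, a subunit of ribonucleotide reductase, by 2.45 ± 0.33. Their sum was 1001 to 1223 CPM in the KO libraries and 424 to 559 CPM in the WT libraries, and the part of cell cycle stage in the values of the 39 genes was not tested. In bulk tissue a change in the mix of cells and a change of RNA per cell cannot be told apart.

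The change from baseline was compared between genotypes as well. No gene of the 39 differed in it at 24, 30, 40 or 48 h, 7 days or 4 weeks, where 0%, 0.0355%, 0%, 0%, 0% and 0.0071% of all genes were called. Nor did any in a joint test of these 6 times, where 0.0426% of all genes were called and Utp20 had the smallest p (adjusted p 0.60), with Nop56 next. At an unadjusted p under 0.05 the counts were 2, 3, 2, 1, 0 and 3 at the single times and 1 in the joint test, and DESeq2 called 0 at each single time and jointly. The leading values were 0.48 ± 0.15 for Pno1 at 24 h, 0.76 ± 0.31 for Nop56 at 30 h, -0.56 ± 0.20 for Utp20 and -0.53 ± 0.18 for Ddx10 at 40 h, -0.81 ± 0.21 for Utp20 at 48 h, 0.33 ± 0.17 for Pno1 at 7 days and 0.67 ± 0.29 for Rrs1 at 4 weeks.

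Few genes differed from baseline at 7 days and 4 weeks. In WT none was called at 7 days, where 3.56% of all genes were, and 2 had an unadjusted p under 0.05, Ubtf with 0.20 ± 0.09 and Pno1 with -0.24 ± 0.11. DESeq2 called 0 there too. At 4 weeks in WT Ncl alone was called, 0.37 ± 0.09 under baseline on the log2 scale (1.17% of all genes), and the call was lost without any 1 of the 4 week libraries or without WT baseline replicate 1 or 3. In KO Tsr1, Mybbp1a and Utp20 were lower at 7 days (5.56% of all genes), by -0.83 ± 0.23, -0.66 ± 0.16 and -0.59 ± 0.16. At 4 weeks the same 3 were lower in KO with Ddx21 and Ncl, and Pno1 was higher (8.57% of all genes). Mybbp1a fell there from 61.4, 90.0 and 55.5 to 42.1, 46.5 and 41.1 CPM. All of these KO calls were lost without KO baseline replicate 2, the library with the highest value for 33 of the 39 genes. Those at 7 days were also lost without KO 7 day replicate 3, and those at 4 weeks became 1 without replicate 1 or 3 of 4 weeks and 3 without replicate 2 of 4 weeks or baseline replicate 1.

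At 96 h the group labelled KO stood apart. Of the 39 genes 20 were lower in it than in the group labelled WT and none was higher, 51.3% of them, where 14.3% of all genes were called and 7.08% were called lower. For 18 genes every library labelled KO was below every library labelled WT, as for 11.8% of all genes. The log2 difference was below 0 for 38 genes, with a median of -0.45. The largest were those of Nop56 (-1.0 ± 0.21), Gnl3 (-0.98 ± 0.18), Bysl (-0.97 ± 0.17), Tsr1 (-0.95 ± 0.20), Nolc1 (-0.94 ± 0.25) and Polr1b (-0.89 ± 0.18). Since Rhox5 and Bglap3 go against the labels at this time, these are differences between 2 sets of libraries and not shown to be differences between genotypes.

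The values behind them are as follows. Polr1b stood at 5.58, 8.32 and 7.14 CPM under the KO label and at 13.9, 11.7 and 13.5 CPM under the WT label. Bysl was 5.22, 6.17 and 7.95 CPM against 15.1, 11.7 and 11.3. Gnl3 was 22.1, 21.6 and 18.0 CPM against 55.3, 35.3 and 31.3, the first of these being replicate 1. That library held the highest value of its group for 35 of the 39 genes, against 33.8% of all genes, and without it 9 of the 20 calls were left. Without replicate 2 or replicate 3 labelled KO 11 and 12 were left, and of the 6 genes just named 5 passed in every alternative run, the exception being Nolc1.

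Against baseline, the 96 h groups moved in both directions. In the group labelled WT 10 genes rose and 6 fell (27.4% of all genes called), led by Nop58 (1.08 ± 0.24), Wdr12 (0.72 ± 0.18), Nip7 (0.70 ± 0.20), Wdr75 (0.69 ± 0.16), Gnl3 (0.68 ± 0.17) and Wdr43 (0.65 ± 0.16) among those higher and Mybbp1a (-0.67 ± 0.15), Noc4l (-0.57 ± 0.16), Polr1b (-0.51 ± 0.17), Bysl (-0.51 ± 0.16), Polr1a (-0.38 ± 0.14) and Bop1 (-0.31 ± 0.11) among those lower. In the group labelled KO 4 rose and 16 fell (44% of all genes called, 22.1% lower). Nip7 (0.71 ± 0.20), Pno1 (0.67 ± 0.11), Nop58 (0.63 ± 0.24) and Npm1 (0.62 ± 0.17) were the higher ones, and Mybbp1a (-1.80 ± 0.15), Rrp12 (-1.48 ± 0.29), Polr1b (-1.46 ± 0.18), Bysl (-1.39 ± 0.17), Utp20 (-1.36 ± 0.14) and Nolc1 (-1.06 ± 0.25) led the lower ones. The 4 genes that rose in the group labelled KO also rose in the group labelled WT, and the 6 that fell in the group labelled WT also fell in the other, but the 16 WT calls became 7 without WT 96 h replicate 1 and 10 without replicate 2.

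The change from baseline to 96 h differed between the labels for 8 genes, all more negative under KO, where 2.91% of all genes were called. These were Utp20 (-1.36 ± 0.20), Tsr1 (-1.21 ± 0.28), Mybbp1a (-1.13 ± 0.21), Gnl3 (-1.04 ± 0.25), Polr1b (-0.95 ± 0.25), Bysl (-0.88 ± 0.23), Nop2 and Ddx21. Utp20 stood at 11.3, 10.3 and 12.0 CPM under the KO label and at 19.3, 22.2 and 16.9 CPM under the WT label. The count was 2 without KO baseline replicate 2 or without WT baseline replicate 1, 3 without WT baseline replicate 2 or without WT 96 h replicate 1, 5 without KO 96 h replicate 2, and 12 without WT baseline replicate 3.

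Gene length moved with the 96 h changes. The longest annotated coding length was under 1041 bases for 6 of the 39 genes and over 1857 bases for 21, these bounds being the tertiles over all 12856 genes with a coding length. Under the KO label at 96 h, the median change from baseline over all genes was 0.31, -0.02 and -0.36 (log2) for short, middle and long genes, and the medians of the 39 genes in these classes were 0.35, -0.16 and -0.68. Under the WT label the medians were 0.19, -0.02 and -0.20 over all genes and 0.38, 0.28 and 0.00 for the 39. Between the labels all genes differed by 0.10, 0.00 and -0.09, and the 39 by -0.15, -0.44 and -0.58. For the 24 to 48 h mean against 4 weeks in WT, all genes had medians of -0.06, 0.001 and 0.127. The 39 genes had 0.04, 0.248 and 0.266. In KO these medians were -0.048, 0.024 and 0.158 over all genes and 0.092, 0.414 and 0.315 for the 39. The part of length in these values was not tested.

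**Figure D5:**
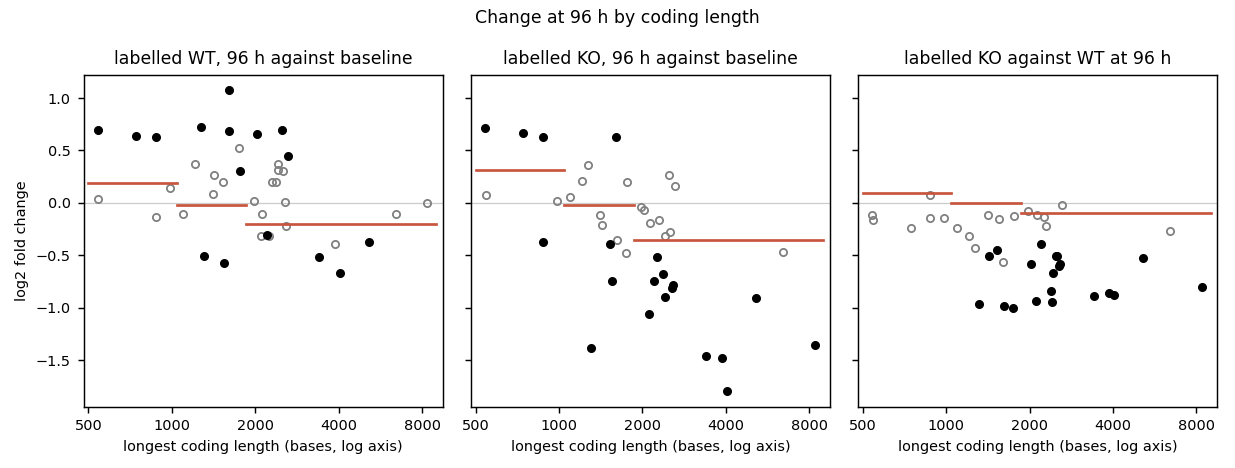
Log2 fold change of each of the 39 genes at 96 h (y axes) against its longest coding length in bases (x axes, log scale) for the group labelled WT against baseline, the group labelled KO against baseline, and the 2 labels against each other. Filled points passed the adjusted p under 0.05 in edgeR, and red lines mark the medians of all genes in 3 length classes, which fall from 0.31 to -0.36 under the KO label. Between the labels none of the 21 long and none of the 12 middle genes is above 0, and 1 of the 6 short genes is.

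Cell markers and albumin also differed at 96 h. Albumin took 14.6 to 19.9% of counts in the libraries labelled KO, 7.23 to 12.4% in those labelled WT and at most 10.1% elsewhere. Neutrophil and monocyte markers were called higher in the group labelled KO for 3 of the 5 tested, with sums of 31.8 to 84.4 CPM over 7 markers against 2.67 to 4.505 CPM, and Mpo and Elane were at or near 0 in all 6 libraries. Kupffer cell and macrophage markers were called for 1 of 8, with sums of 374 to 657 CPM against 199 to 291 CPM. Genes of S phase and mitosis were called higher for 11 of 20, with sums of 145 to 240.4 CPM against 86.2 to 134 CPM. Their part in the values of the 39 genes was not tested.

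Markers also differed between the early times and 4 weeks. Hepatocyte markers summed to 56716 to 69689 CPM in WT and 57318 to 69659 CPM in KO at 24 h. At 40 h the sums were already 92624 to 99533 CPM in WT and 76620 to 99140 CPM in KO. At 4 weeks they were 81130 to 104172 and 97454 to 104130 CPM. In the 24 to 48 h mean 2 of 8 were called lower in each genotype. Of all genes 18.6% were called lower and 18.5% higher in WT, and 20.8% and 21.7% in KO. Neutrophil and monocyte markers were called higher for 3 of the 5 tested in each genotype. Their sum was 7.72 to 12.1 CPM at 24 h, 27.5 to 35.9 at 48 h and 1.45 to 3.20 at 4 weeks in WT, and for KO 5.51 to 14.1, 28.4 to 43.7 and 1.90 to 2.79 CPM. Stellate cell markers were called higher for 2 of 8 in WT and 6 of 8 in KO, and endothelial markers for 3 and 5 of 8. All 20 genes of S phase and mitosis were higher than at 4 weeks in both genotypes. The part of these shifts in the values of the 39 genes was not tested.

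Other genes of the pathway, a list of 112 further factors, moved in both directions in the same comparisons. Averaged over 24 to 48 h against 4 weeks, 15 were called higher and 8 lower in WT, and 30 higher and 10 lower in KO. Of all genes 18.5% were called higher and 18.6% lower in WT, and 21.7% and 20.8% in KO. The median changes of the list were 0.10 and 0.17. Rrp1b, a nucleolar partner of a protein phosphatase, was the largest in both, with 0.76 in WT and 1.24 in KO, while Fcf1, a nuclease of the processome, was lower by -0.61 and -0.65. At 30 h in KO 21 rose, Nhp2 of the H/ACA particle by 1.16, and 2 fell against baseline, where 17% of all genes rose and 16.1% fell. At 96 h 29 were lower and 1 higher in the group labelled KO, where 7.08% of all genes were called lower and 7.22% higher. The AAA ATPase Mdn1 differed by -1.30, and the anti-association factor Eif6 was higher by 0.33.

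Ribosomal protein genes encode the proteins of the finished subunits. The 24 to 48 h mean was set against 4 weeks for the 78 tested. In WT 1 was called higher and 7 lower, and in KO 5 higher and 4 lower. At 96 h 58 rose and 1 fell against baseline under the WT label, where 12.8% of all genes rose and 14.6% fell. Under the KO label 57 rose and 3 fell, where 21.9% of all genes rose and 22.1% fell. Between the labels 2 were called, where 14.3% of all genes were. Myc, the best known activator of this pathway, was not called higher than baseline at any early time in either genotype, and its 24 to 48 h mean in WT was lower by -1.15 ± 0.40 (adjusted p 0.025, edgeR). In WT it was 8.32, 7.08 and 16.5 CPM at baseline and 5.30, 3.602 and 5.69 at 24 h. In KO it was 4.43, 2.53 and 11.4 CPM at baseline and 13.4, 4.17 and 7.05 at 24 h. The log2 changes at 24 h, -1.12 ± 0.53 in WT and 0.41 ± 0.52 in KO, did not pass. The 16.5 CPM came from WT baseline replicate 3, the library described above as the highest of its group for most of the genes followed. For Myc, no comparison with 4 weeks and no run without single libraries is given. No library lies between baseline and 24 h, so an earlier change of Myc could not be seen.

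Calls were also counted by the E-box. In KO 4 of the 9 genes with it in the promoter window were called higher over 24 to 48 h than at 4 weeks (median change 0.26). Of the 25 whose window did not hold it, 13 were called higher, with a median of 0.31. In WT the counts were 1 of 9 and 8 of 25, and both medians were 0.22. Between the labels at 96 h 5 of 9 and 13 of 25 were lower, with medians of -0.59 and -0.51. These are counts over few genes, given as a description.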

How the data were processed

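The deposited gene counts are raw whole numbers. FPKM values, which the authors deposited too and which scale fragments to transcript length and depth, were used only to order levels between genes. Per the submitters' processing notes, tools included FastQC 0.11.5, Trimmomatic, TopHat2 2.1.0, Cufflinks 2.2.1, HTSeq and DESeq2, with build mm10. For annotation, parameters and strand setting nothing is stated in the sources used here. Groups were taken from the sample titles.

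Counts were filtered with filterByExpr (14090 genes kept, at least 99.944% of each library's counts), scaled with TMM and tested with edgeR 4.0.16 (robust quasi-likelihood, 1 mean for each of 16 groups, all 45 libraries, 29 residual degrees of freedom). Log2 fold changes carry SE from the F statistic. Benjamini-Hochberg adjustment ran over all genes tested, with a threshold of 0.05. The 39 genes and the comparison lists were chosen with earlier results of these data known, and the comparisons with the mean of 24 to 48 h were added after the data were seen. Genes named in a comparison included up to 6 called in each direction with the largest change or, with none called, the 2 with the smallest p. The largest and smallest early changes of each role and up to 3 genes of other lists were also named. Further called genes were named as well, among them all those at 30 h in KO. Alternatives were DESeq2 1.42.0, its size factors in edgeR, no filter, a replicate block, no 96 h libraries, and each library left out. The fit was tested on simulated counts, with known changes put into KO at 40 h for genes above a level cutoff. Against WT, edgeR recovered 56.7% of the 1.5-fold, 83.6% of the 2-fold and 98.5% of the 4-fold changes, with 11 false calls. Smaller differences between the genotypes can thus be missed. Positions come from GENCODE M21 (GRCm38), promoters from RefSeq (GRCm38.p6).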

Additional observations from a re-analysis of the deposited data

Results flagged for a closer look

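For 8 of the 39 genes the change from baseline to 96 h differed between the genotype labels by an interaction test in edgeR (adjusted p under 0.05 over all genes tested), each more negative under the KO label. The log2 differences of the changes were -1.36 for Utp20, -1.21 for Tsr1, -1.13 for Mybbp1a, -1.04 for Gnl3, -0.95 for Polr1b, -0.88 for Bysl, -0.87 for Nop2 and -0.83 for Ddx21. Rhox5 and Bglap3 go against the label of the 3 libraries labelled WT at this time. Only Utp20 and Mybbp1a, of the 6 with the largest differences, passed in every alternative run. With 2 or 3 libraries in each group, Dixon's test for an outlying library was not run.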

How the results depend on the processing

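Counts of the 39 genes called, as everywhere under an adjusted p of 0.05, kept within 1.5 times of the stated ones under every whole-data alternative except the following. For WT at 24 h (2 called) DESeq2 size factors in edgeR and DESeq2 itself gave 4 and the fit without the 96 h libraries 6. For WT at 30 h (2) no filter gave 1 and the fit without the 96 h libraries 4. For WT at 4 weeks (1) the size factors, no filter and the replicate block each gave 0, and for KO at 24 h (3) the fit without the 96 h libraries gave 5. The cause was not tested. No direction reversed. The pairing by replicate number was not borne out (8 of 21 KO and WT pairs and 4 of 39 pairs with baseline correlated above 0.1). With the replicate block the counts were 19 for KO against WT at 96 h, 16 for KO at 30 h, 3 each for WT at 24 and 30 h, and 11 and 19 for the early means against 4 weeks in WT and KO.

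With 1 library left out at a time, the counts against baseline ran in WT from 0 to 10 at 24 h, 0 to 6 at 30 h, 1 to 8 at 40 h, 0 to 6 at 48 h, 7 to 18 at 96 h and 0 to 1 at 4 weeks. In KO they ran from 2 to 10, 9 to 21, 3 to 12, 5 to 8, 19 to 23 and 0 to 8 at these times, and from 0 to 4 at 7 days. The early means gave 2 to 12 in WT and 5 to 17 in KO against baseline, and 9 to 12 and 13 to 22 against 4 weeks. KO against WT gave 0 to 1 at baseline and over 7 conditions, 9 to 21 at 96 h and 0 elsewhere, and the interaction at 96 h gave 2 to 12. Of the calls with the largest changes, up to 6 in each direction of a comparison, DESeq2 kept 101 of 103. Leaving out single libraries lost 161 of 832 for these calls. Other calls named in the text are not in these counts. Over all comparisons and alternative runs, the median log2 change of all genes was at most 0.046 in size. Depth limits the rarer genes most, Noc3l at 1.52 FPKM, and 2 or 3 libraries a group limit every call.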
